A study of Rattus norvegicus with 8 samples.

Results

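The UGT2 family of UDP-glucuronosyltransferases was followed in rat liver after treatment with D3T. Its members were chosen by the gene symbols of the platform annotation, as every probe set whose symbols included one starting with Ugt2a or Ugt2b. A probe set is the group of short probes that reads 1 transcript on an array. The rule gave 11 of 8740 non-control probe sets, of which 10 were matched to a single symbol and stood for 7 genes, and 1 was matched to both Ugt2b15 and Ugt2b37 and is given apart. Liver RNA came from 8 male Fischer 344 rats, 1 Affymetrix rat oligonucleotide array per rat, with 4 rats in each group. D3T (3H-1,2-dithiole-3-thione), a sulfur compound known as an inducer of detoxification enzymes that acts through Nrf2, the product of Nfe2l2, was given by gavage at 0.3 mmol per kg body weight in saturated sucrose, and control animals were gavaged with 0.2 ml of the sucrose alone. Dosing was on days 1, 3 and 5 for 7 rats, and the labels name no days for vehicle replicate 2. All rats ate AIN 76A chow and had an age of 6, for which the labels give no unit.

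UDP-glucuronosyltransferases sit in the membrane of the endoplasmic reticulum and transfer glucuronic acid from UDP-glucuronic acid to steroids, bile acids, drugs and other lipophilic compounds, which then leave in bile or urine. The enzymes of the UGT1A cluster share their last exons, whereas each UGT2B enzyme has a gene of its own, and liver is the main site of the UGT2B enzymes. Rat Ugt2b1 and Ugt2b are known for conjugating androgens, Ugt2b1 also for morphine. In humans UGT2B15 conjugates dihydrotestosterone and UGT2B7 conjugates morphine and bile acids. Ugt2a1 is the form of the olfactory epithelium.

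In the RefSeq annotation of the rat assembly GRCr8 all 13 genes whose symbols begin with Ugt2a or Ugt2b, 11 protein-coding genes and 2 pseudogenes, lie on chromosome 14. Those measured here follow each other in the order Ugt2a1, Ugt2b, Ugt2b15, Ugt2b37, Ugt2b35, Ugt2b7 and Ugt2b1, with other genes between some of them. RefSeq promoter windows, from 250 bases before a gene's start to 50 after it, were found for 6 of the 7 genes, Ugt2a1 being the exception. They are shown because the members share sequence in front of their starts as well as in the transcripts that the probes read. The longest run of letters held by at least 5 of the 6 windows was 25 bases long, TGAGCAATGCAAGTTATATTTTAAC. It was present in Ugt2b, Ugt2b15, Ugt2b37, Ugt2b35 and Ugt2b7 and lay between 90 and 42 bases before the start. Of all 33469 promoter windows 7 (0.0209%) held it on either strand, those of the 5 genes just named, of Ugt2b7l1 and of a further protein-coding locus with no gene name between Ugt2a3 and Ugt2b. The Ugt2b1 window matched 15 of the 25 letters at its best position, and the 10 others differed. The stretches below, all on the plus strand of GRCr8 and written 5′ to 3′, are chr14:20985350-20985424 for Ugt2b, chr14:21122763-21122837 for Ugt2b15, chr14:21172045-21172119 for Ugt2b37, chr14:21208329-21208403 for Ugt2b35, chr14:21251420-21251494 for Ugt2b7 and chr14:21378773-21378847 for Ugt2b1. Capitals mark the letters identical to the shared run.
Ugt2b: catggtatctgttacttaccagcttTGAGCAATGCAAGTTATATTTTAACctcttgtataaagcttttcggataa
Ugt2b15: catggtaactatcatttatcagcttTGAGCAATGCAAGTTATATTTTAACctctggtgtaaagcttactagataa
Ugt2b37: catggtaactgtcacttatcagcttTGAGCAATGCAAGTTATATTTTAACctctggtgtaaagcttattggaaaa
Ugt2b35: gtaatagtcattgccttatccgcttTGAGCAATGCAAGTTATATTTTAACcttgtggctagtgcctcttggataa
Ugt2b7: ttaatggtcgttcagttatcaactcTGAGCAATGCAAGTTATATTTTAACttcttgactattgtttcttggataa
Ugt2b1: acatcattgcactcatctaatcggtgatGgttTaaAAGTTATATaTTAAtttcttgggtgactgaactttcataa

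The windows of Ugt2b15 and Ugt2b37 were the most alike, with 267 identical letters over 287 aligned (93%) in a local alignment. Those of Ugt2b15 and Ugt2b35 aligned over 166 letters, of which 81.9% were identical. No window aligned with that of Ugt2b1 over more than 24 letters. The whole windows of Ugt2b15 (chr14:21122616-21122915) and Ugt2b1 (chr14:21378632-21378931) are printed because these genes had the firmest calls below and stood at opposite ends of this likeness.
Ugt2b15: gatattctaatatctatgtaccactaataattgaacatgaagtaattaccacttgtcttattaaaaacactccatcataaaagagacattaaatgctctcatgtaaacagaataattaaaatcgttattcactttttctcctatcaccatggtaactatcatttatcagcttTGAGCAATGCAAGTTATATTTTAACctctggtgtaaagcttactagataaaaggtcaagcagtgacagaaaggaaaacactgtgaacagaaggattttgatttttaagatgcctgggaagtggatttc
Ugt2b1: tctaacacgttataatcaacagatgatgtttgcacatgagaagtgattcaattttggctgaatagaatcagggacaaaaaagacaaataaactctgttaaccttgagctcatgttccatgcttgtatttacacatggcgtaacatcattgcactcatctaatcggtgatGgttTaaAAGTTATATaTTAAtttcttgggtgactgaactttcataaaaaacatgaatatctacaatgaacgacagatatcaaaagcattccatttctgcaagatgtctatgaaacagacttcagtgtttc

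The antioxidant response core TGACNNNGC was searched on both strands of the 6 windows. It was in none of them, against 12.1% of all promoter windows. These letters do not occur in the shared run, and the search says nothing of sites outside these windows.

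The 8 arrays had 2% trimmed means from 500.8 to 501.0, and log2 signals of any pair of arrays correlated between 0.913 and 0.955 across probe sets. Signals carry no count, so the 4 arrays per group set the precision. Nqo1, a quinone reductase that D3T is known to induce, went from 195.3 ± 45.1 (SD, n = 4) to 673.9 ± 152.4 and Gsta1, an alpha-class glutathione transferase, was 2.98-fold higher. Albumin (Alb), the chief protein made by hepatocytes, had a signal of 39215 ± 8896 in vehicle livers and 53557 ± 8992 after D3T (limma, adjusted p = 0.106). Of the hepatocyte markers 6 of 7 had a probe set, and their summed signal ran from 145706 to 223804 in vehicle and from 185453 to 260254 after D3T. In bulk liver fewer cells of a type and less RNA per cell cannot be told apart. The summed signal of 4 Kupffer cell and macrophage markers (of 8 listed) was lower on every D3T array, at 2508 to 3345 against 3491 to 3684.5, but of the 3 tested 1 rose (Cd14) and 1 fell (C1qb). That of 4 lymphocyte markers (of 6) was higher, at 524 to 574.9 against 371.8 to 427.7. For 6 stellate and fibroblast markers (of 6) the sum ran from 1445 to 1969 after D3T and from 1830 to 3243 in vehicle, for 3 endothelial markers (of 6) from 233 to 443.8 and from 356.4 to 508.6, and for 3 bile duct markers (of 5) from 375.1 to 477 and from 265.3 to 423.7. No marker lay at or below the floor on all 8 arrays. Of the other lists, 1 hepatocyte and 1 stellate marker fell and none of the rest was called. The part of these cell types in the UGT2 results was not tested.

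Transcripts of Ugt2b15 and Ugt2b1 were higher after D3T, and so was Ugt2b35 by the brighter of its pair of probe sets only. Of the 10 probe sets with 1 symbol, 8 passed a filter that kept probe sets above the 40th percentile of level over all arrays. Of these, 7 also lay above that percentile in the vehicle livers alone, and 3 of the 7 rose, by 1.46-fold to 2.02-fold. None fell. The other 4, 2 for Ugt2b and 1 each for Ugt2b37 and Ugt2b35, had positive fold changes from 1.21 to 1.47 without passing. The eighth, for Ugt2b7, lay at percentile 32.5 in vehicle livers and 50.6 in D3T livers, so it passed the filter only through the group in which it was high, and it is described apart below. Over all 5244 tested probe sets 4.2% were called higher and 6.48% lower (limma, Benjamini-Hochberg adjusted p under 0.05). The 4 D3T arrays lay wholly above the 4 vehicle arrays for the same 3 of the 7, against 7.89% of all tested probe sets. The median log2 fold change of the 7 was 0.55, beside 0.02 for all tested probe sets. Over all 8, Ugt2b7 included, 4 were called as reported and 2 without any one of 4 single arrays named under the processing alternatives. With no filter 1 was called, and 0 with an RNA quality ratio as a covariate. Calls over all tested probe sets were 560 as reported, 309 of 8740 with no filter and 35 with that covariate. The probe sets of this family share sequence, and 5 of the 8 tested bear names with f, i or s before the ending, Affymetrix's mark for probes that a family or several transcripts share or for incomplete sets, so they are not independent measurements.

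**Figure D1:**
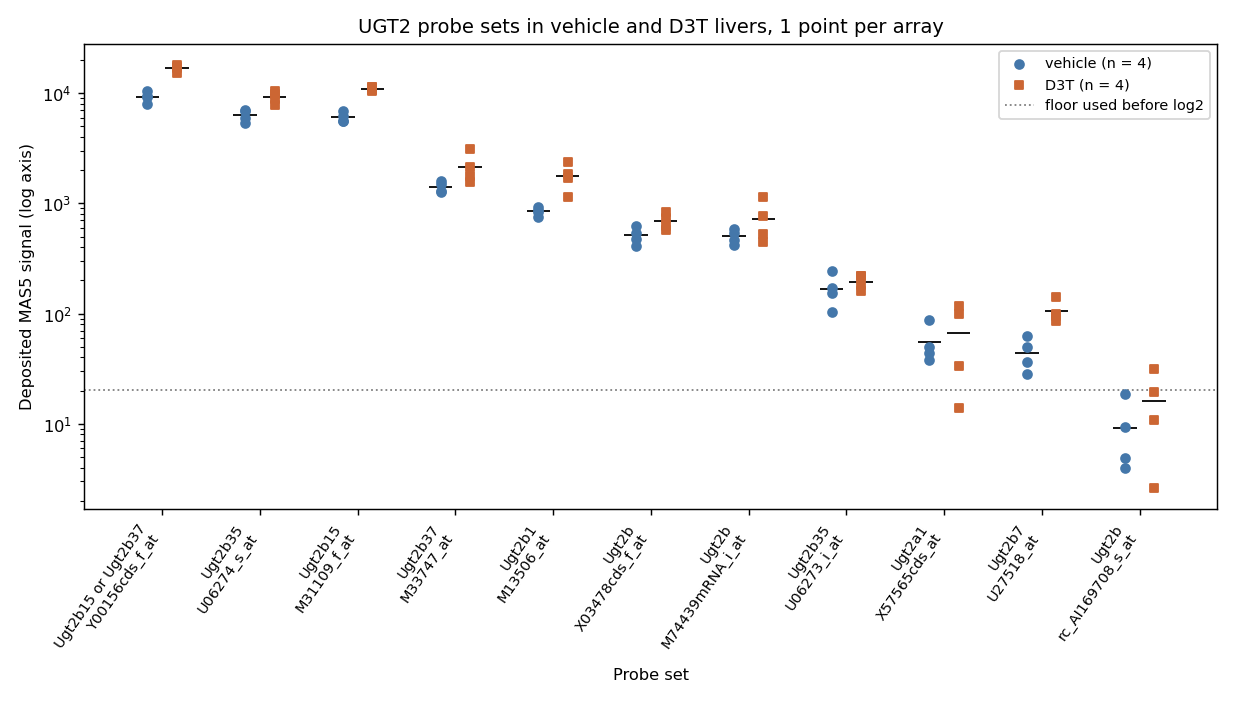
Deposited MAS5 signal (log axis) of the 11 UGT2 probe sets. Each point is 1 array, circles for vehicle and squares for D3T (n = 4 each), short lines are group means, and the dotted line is the floor of 20.3 applied before log2. For Ugt2b15, Ugt2b1, Ugt2b7, the brighter Ugt2b35 probe set and the probe set shared by Ugt2b15 and Ugt2b37, the D3T points lie wholly above the vehicle points.

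Ugt2b15, named after the human enzyme of androgen conjugation, had the rise with the lowest adjusted p of the members. Its probe set M31109_f_at gave signals of 5569.9, 6841.7, 6257.4 and 5640.2 in vehicle replicates 1 to 4 and of 10377, 10774.8, 11420 and 11382.7 in D3T replicates 1 to 4. The groups were far apart, and the lowest D3T liver exceeded the highest vehicle liver by more than the whole vehicle range. The means were 6077 ± 595.9 (SD, n = 4) and 10989 ± 503.7, a log2 fold change of 0.86 ± 0.10 (SE) or 1.81-fold, with a 95% interval of 1.55 to 2.12 (limma, adjusted p = 0.000939). It passed in 8 of 8 fits without 1 array, and its log2 fold change stayed between 0.78 and 0.92 over 20 alternatives, of which 19 kept the call. It was lost with the actin ratio described below as a covariate (adjusted p = 0.0704).

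The probe set matched to both Ugt2b15 and Ugt2b37, Y00156cds_f_at, behaved much the same. It read 7920, 10504.4, 9399.5 and 9269.4 in the vehicle livers and 15085.8, 17250.1, 16918 and 17951.7 in the D3T livers, again without overlap. Its log2 fold change was 0.86 ± 0.11 (adjusted p = 0.00158), and how much of the signal comes from each of its genes cannot be told apart.

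Ugt2b37 alone, a neighbour of Ugt2b15 whose promoter window is nearly identical, was read by M33747_at. Vehicle livers gave 1509.3, 1297.3, 1584.8 and 1275.8, and D3T livers 2139.6, 1575.8, 1773.4 and 3086.6. D3T replicate 4 stood high and D3T replicate 2 lay within the vehicle range, so 3 of 4 D3T livers exceeded every vehicle liver. The log2 fold change of 0.56 ± 0.19 did not pass (adjusted p = 0.0907). Without D3T replicate 2 it was 0.69 and passed (adjusted p = 0.0496), and it passed in no other of the 20 alternatives. The response of the shared probe set minus that of M33747_at was 0.31 on the log2 scale (exact two-sided permutation test over 70 assignments, p = 0.314).

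Ugt2b1, an androgen and morphine conjugating enzyme, rose 2.02-fold by M13506_at, one of the 3 tested members whose names carry no mark of sharing. Its signals were 751.1, 877.8, 833.2 and 920.1 in vehicle livers and 1839.7, 1142, 1685.1 and 2378.8 after D3T. The vehicle livers were tightly grouped (coefficient of variation 8.55%) and the D3T livers spread widely (28.9%), with D3T replicate 2 lowest and still above all vehicle livers. The means were 845.5 ± 72.3 (SD, n = 4) and 1761 ± 508.9, and the log2 fold change was 1.01 ± 0.20 with an interval of 1.49-fold to 2.74-fold (adjusted p = 0.0120). All 8 fits without 1 array kept the call, with adjusted p up to 0.0388. It was lost with no filter on level (adjusted p = 0.0565) and with the actin covariate (log2 fold change 0.68, adjusted p = 0.335).

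Ugt2b35 was read by a pair of probe sets of very different signal. The brighter, U06274_s_at, read 5939.2, 5376.8, 6854 and 7055.7 in vehicle livers and 8921.4, 7758.6, 9842.9 and 10382.1 after D3T. Every D3T liver lay above every vehicle liver, though D3T replicate 2 cleared the highest of them by little. The rise was 1.46-fold (log2 fold change 0.55 ± 0.13, interval 1.20-fold to 1.78-fold, adjusted p = 0.0257). It passed in 4 of 8 fits without 1 array and was lost without vehicle replicate 1 or D3T replicates 1, 3 or 4 (adjusted p up to 0.0725). Of 20 alternatives 12 kept the call. It was also lost with quantile normalization (limma, adjusted p = 0.0570), no filter (0.0667), no intensity trend (0.0700) and the actin covariate (0.352). The dimmer set, U06273_i_at, ran from 104.3 to 242.4 in vehicle and from 160.4 to 220.5 after D3T, so its groups overlapped completely. Its log2 fold change was 0.27 ± 0.27 (adjusted p = 0.520), and it differed from that of the brighter set by 0.28 on the log2 scale (exact p = 0.314).

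Ugt2b7, whose human namesake conjugates morphine and bile acids, was read by a dim probe set, U27518_at, that was tested only because its D3T signals raised its mean level past the filter. The vehicle livers read 50.2, 28.3, 36.1 and 62, and the D3T livers 86.4, 100, 141.2 and 95.4. No D3T liver fell within the vehicle range, and D3T replicate 3 was the highest. The log2 fold change was 1.30 ± 0.37, or 2.46-fold, with a wide interval of 1.39-fold to 4.35-fold. Raising the floor to the 40th percentile gave it a log2 fold change of 0.68 (adjusted p = 0.0753), below that of Ugt2b1. The reported call lay at the threshold (adjusted p = 0.0496), it held in 0 of the 7 leave-one-array fits in which the probe set was bright enough to be tested, and since a probe set that enters this way had to differ, nothing further is read from it.

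Ugt2b itself, the androsterone-conjugating form in rat, was read by 3 probe sets. By X03478cds_f_at vehicle livers read 414.1, 479.1, 536 and 624.5, and D3T livers 740.8, 626, 572 and 826. D3T replicate 3 alone lay within the vehicle range, and the log2 fold change of 0.43 ± 0.17 did not pass (adjusted p = 0.130). By M74439mRNA_i_at the values were 543.4, 580.4, 462.8 and 415.5 against 774.9, 443.5, 523.9 and 1142.3. D3T replicates 1 and 4 were high while replicates 2 and 3 lay among the vehicle livers, and the log2 fold change was 0.44 ± 0.27 (adjusted p = 0.297). The third, rc_AI169708_s_at, ran from 2.6 to 31.5, lay at the floor on 7 of 8 arrays and was too dim to be tested.

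Ugt2a1, the olfactory form, was also below the filter on level. Its probe set X57565cds_at ran from 37.5 to 88.3 in vehicle and from 13.8 to 118.2 after D3T, with D3T replicate 1 highest and replicate 4 lowest. With no filter its log2 fold change was 0.04 ± 0.63.

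**Figure D2:**
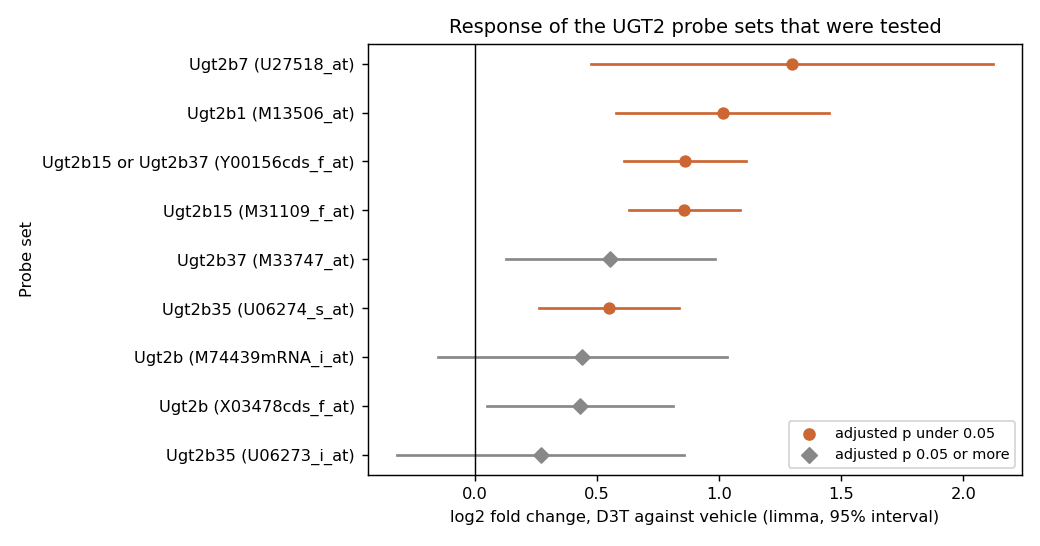
Log2 fold change of D3T against vehicle for the 9 tested UGT2 probe sets, with 95% intervals from limma. Orange circles passed an adjusted p of 0.05 and grey diamonds did not. All 9 values are positive, from 0.27 for U06273_i_at to 1.30 for Ugt2b7.

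The members' responses were not separated from each other. The 9 tested probe sets, the shared one included, gave 36 pairs, and for each the difference in response was compared by an exact two-sided permutation test, which can give no p below 0.0286 here. The largest difference was that between U06273_i_at of Ugt2b35 and Ugt2b7, at -1.03 on the log2 scale. That pair, Ugt2b35 (U06274_s_at) against Ugt2b7 (-0.75) and Ugt2b37 against Ugt2b1 (-0.46) reached this lowest p. Since Ugt2b7 was tested only through its D3T signals, nothing is read from its pairs. No pair passed after Benjamini-Hochberg adjustment over the 36 (smallest adjusted p = 0.294). With a lowest p of 0.0286, none could pass unless most of the pairs reached it. The lack of a pass thus does not show that the members respond alike. Signals of different probe sets are not comparable as transcript levels, so no order of abundance among the genes is given.

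The livers differed in how far the members stood above the vehicle mean. The median over the 9 tested probe sets of log2 signal minus the vehicle mean was 0.64 for D3T replicate 1, 0.31 for replicate 2, 0.65 for replicate 3 and 0.96 for replicate 4. D3T replicate 4 was the highest D3T liver for 6 of the 9 and the lowest for none, and D3T replicate 2 the lowest for 5 and the highest for none. The medians include Ugt2b7, whose D3T signals had to be high for it to be tested. It is not among the 6 or the 5, being highest in D3T replicate 3 and lowest in D3T replicate 1. For M31109_f_at the 4 D3T livers spanned 0.14 on the log2 scale, for Ugt2b1 1.06 and for M74439mRNA_i_at 1.37. The D3T livers spanned more than the vehicle livers for 4 of the 9. The same 4 livers were measured throughout, so the members' agreement is not independent evidence.

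**Figure D3:**
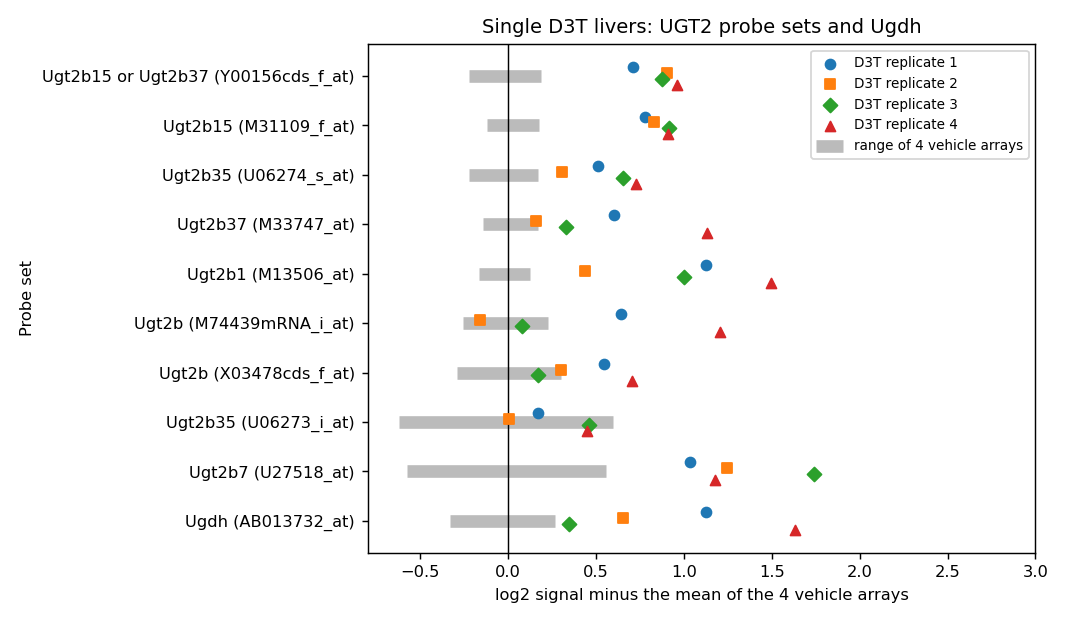
Log2 signal of each D3T array minus the mean of the 4 vehicle arrays, for the 9 tested UGT2 probe sets and Ugdh. Grey bars are the range of the vehicle arrays. D3T replicate 4 (triangle) is highest for 6 of the 9 UGT2 probe sets and D3T replicate 2 (square) lowest for 5, while the 4 livers lie close together for Ugt2b15.

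Ratios of 3′ to 5′ signal, used as a measure of RNA quality, were lower on most D3T arrays, with overlap. A lower ratio does not stand for poorer RNA. The signal ratio of the 3′ to the 5′ probe set of actin was 1.59, 1.53, 1.45 and 1.59 in vehicle replicates 1 to 4 and 1.32, 1.34, 1.47 and 1.17 in D3T replicates 1 to 4 (exact two-sided permutation test, p = 0.0571). It was lowest in D3T replicate 4, and D3T replicate 3 lay within the vehicle range. For Gapdh the vehicle livers had a ratio of 1.87 ± 0.21 (SD, n = 4) and the D3T livers one of 1.59 ± 0.28 (exact permutation p = 0.114). With the actin ratio as a covariate in limma the log2 fold change was 0.80 for M31109_f_at (adjusted p = 0.0704). It was 0.77 for the shared probe set (0.104), 0.68 for Ugt2b1 (0.335), 0.46 for U06274_s_at (0.352) and 1.80 for Ugt2b7 (0.205), so none passed. The value of M74439mRNA_i_at turned to -0.22 and that of Ugt2b37 shrank to 0.03. In this fit the calls over all tested probe sets went from 560 to 35. The ratio's part in the results beyond this fit was not tested.

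**Figure D4:**
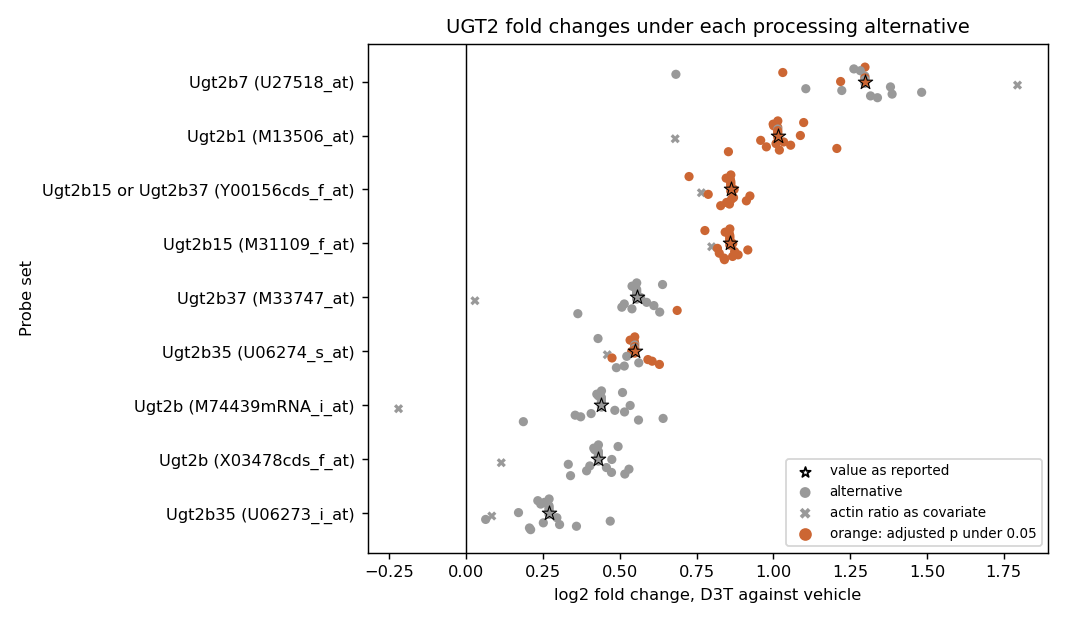
Log2 fold change of each tested UGT2 probe set as reported (star) and under each processing alternative (circles), with the fit that holds the actin ratio as a covariate as a cross. Orange marks an adjusted p under 0.05. Ugt2b15 and the shared probe set are orange in all fits but that covariate, while Ugt2b7 is orange in 4 of 18 alternatives.

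The UGT1A cluster, read by 14 probe sets on the same arrays, is the nearest relative, and most of its probe sets match several of its genes. Of its 10 tested probe sets 8 rose, against 4.2% of all tested probe sets. D38061exon_s_at rose 21.5-fold and S56936_s_at 8.02-fold, and the other 6 that passed rose from 1.62-fold to 3.13-fold. All 90 pairs of a tested UGT1A and a tested UGT2 probe set were compared by the exact permutation test. They include those of Ugt2b7, from which nothing is read because it was tested only through its D3T signals. D38061exon_s_at exceeded each of the 9 UGT2 probe sets by 3.13 to 4.15 on the log2 scale and S56936_s_at by 1.71 to 2.73, each at the lowest p the test can give (0.0286). In the other direction D38065exon_s_at, which did not pass, lay below all 9 with differences of -1.29 to -0.26, 4 of them with p under 0.05, and D38069exon_s_at lay below all 9 with differences of -1.41 to -0.38. After adjustment over the 90 pairs none passed (smallest adjusted p = 0.0918). With a lowest p of 0.0286, none could pass unless most of the pairs reached it, so the adjusted test cannot decide on single pairs. The brightest UGT1A probe set, J05132_s_at, differed from the 9 by -0.60 to 0.43.

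Genes around glucuronidation were followed in 4 lists, for glucuronate supply and glucuronide export, the competing sulfate conjugation, enzymes of steroid substrates, and regulators. Of 45 genes 28 were tested, and 4 rose and 6 fell, where 4.2% of all tested probe sets were called higher and 6.48% lower. With the actin ratio as a covariate 1 of these 10 calls remained, that of Papss2. The calls over all 5244 tested probe sets then went from 560 to 35. The median log2 fold change of the 28 genes was -0.12, beside 0.02 over all tested probe sets.

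Ugdh, which makes the UDP-glucuronic acid that every UGT enzyme consumes, rose 1.92-fold. It read 2832.4, 2131.1, 2716.4 and 1870.5 in vehicle livers and 5135.7, 3703.8, 2993.1 and 7290.9 after D3T. D3T replicate 4 was highest, as for 6 of the UGT2 probe sets, and D3T replicate 3 was close to the vehicle range. The call (log2 fold change 0.94 ± 0.25, adjusted p = 0.0397) held in 2 of 8 fits without 1 array, and with the actin covariate the value was 0.16 and did not pass. Abcc2, the canalicular pump that exports glucuronides into bile, fell from 1876.2, 2106, 2110.3 and 1475.6 to 1143.7, 1022.5, 884.4 and 894.2 (log2 fold change -0.93 ± 0.15, adjusted p = 0.00513). Its groups did not overlap, and it passed in 8 of 8 fits without 1 array but not with the actin covariate (adjusted p = 0.108). Abcc3, which exports glucuronides towards blood, had a mean of 82.6 in vehicle and 206.0 after D3T with wide spread (adjusted p = 0.498).

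In sulfate conjugation 4 of 8 tested genes fell and none rose (median log2 fold change -0.58), against 6.48% called lower and 4.2% higher over all tested probe sets. Papss2, which makes the sulfate donor, went from 2977 ± 499.6 (SD, n = 4) to 1166 ± 95.2, a log2 fold change of -1.34 ± 0.14 (adjusted p = 0.000321). It passed in all 20 alternatives, the actin covariate included (adjusted p = 0.0188). Sult2a1 and Sult2a2, which sulfate hydroxysteroids and bile acids, fell by 1.37 and 1.02 on the log2 scale (adjusted p = 0.0120 and 0.0276), and Sult1c3 fell by 0.58 (adjusted p = 0.0312). The probe sets used for Sult2a1 and Sult2a2 bear the f mark of sharing, so they are not independent measurements. Sult2a2 and Sult1c3 passed in 4 and 2 of 8 fits without 1 array. Sult2a1 passed in 8 of 8 but lost its call with no filter (adjusted p = 0.0676) and with the actin covariate (0.125). Sult1a1, a phenol sulfotransferase and the brightest of the list, had a log2 fold change of 0.22 ± 0.12 (adjusted p = 0.255).

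Among 8 enzymes of steroid substrates 1 rose and none fell (median -0.12). Akr1d1, the steroid 5-beta-reductase of bile acid synthesis, was 1.52-fold higher (adjusted p = 0.00806, and 0.244 with the actin covariate). Hsd11b1, which regenerates glucocorticoid and was the brightest of the list, went from 8931 ± 491.9 to 10203 ± 308.1 without passing (adjusted p = 0.191).

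Among 9 tested regulators 2 rose and 1 fell (median 0.42). Rxra, the shared partner of several nuclear receptors, rose 5.55-fold from a low signal (adjusted p = 0.00725), a call lost with no filter (0.0527) and with the actin covariate (0.130). Hnf4a, a nuclear receptor of hepatocyte identity, was 1.41-fold higher with a call that held in 0 of 8 fits without 1 array (adjusted p = 0.0477). Cebpb, a factor of the acute phase response, fell from 2388 ± 248.5 to 1589 ± 192.7 (adjusted p = 0.0186, and 0.317 with the actin covariate), and it passed in 6 of 8 fits without 1 array. Nfe2l2 had a log2 fold change of -0.73 ± 0.37 (adjusted p = 0.219). No tested probe set was matched to Keap1, Nr1i2, Nr1i3 or Ahr alone.

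**Figure D5:**
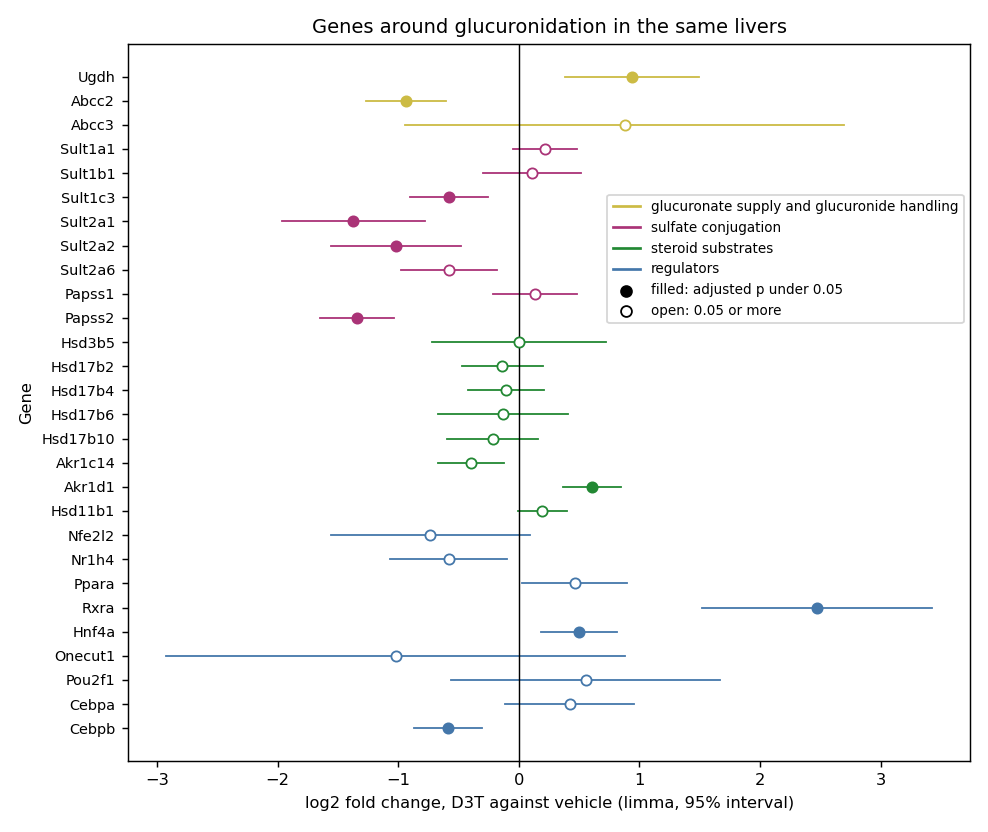
Log2 fold change of D3T against vehicle for the 28 tested genes of 4 lists around glucuronidation, with 95% intervals from limma. Colours mark the lists, and filled points passed an adjusted p of 0.05. Ugdh rose and Abcc2 fell, and 4 of 8 sulfate conjugation genes fell while none rose.

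The genes most like the members over the 8 arrays were found by the root mean square difference of log2 signals after subtracting each probe set's own mean, over 4290 other tested probe sets with 1 symbol. For Ugt2b15 (M31109_f_at) they were Cyp2b2 (0.11), Cd14 (0.11), Car5a (0.12), Chrm3 (0.12) and Gstm1 (0.14), against a median of 0.57 over all compared. For Ugt2b7 they were Begain (0.30), Wipf3 (0.31), Gstm1 (0.31), Mif (0.34) and Gsta1 (0.34), against a median of 0.84. Because Ugt2b7 was tested only through its D3T signals, nothing is read from its list. The genes of the Ugt2b15 list all rose, with log2 fold changes from 0.69 to 1.08. They were picked on the same arrays for likeness to a probe set already called higher. Their rise thus follows from the choice and is no separate result. Cd14 is also on the macrophage list given above.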

How the data were processed

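Liver RNA of 4 vehicle and 4 D3T rats was measured on 1 array each, with groups and replicate numbers taken from the sample titles. The deposited values are signal intensities on a linear scale made with MAS5, per the submitters' processing notes. The MAS5 version is not given in the sources used here, nor are its scaling target and detection calls.

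Signals were multiplied per array so that the mean after trimming 2% at each end was 500. A floor was set at the 20th percentile of all signals (20.3) before taking log2. The 60% of 8740 non-control probe sets with the highest mean log2 signal, 5244 in all, were tested in R (version 4.3.3) by limma (version 3.58.1) with an intensity trend, and p-values were adjusted over all of them. Per-array signals, means and SDs are of the deposited values. For a listed gene with several tested probe sets, the one of highest mean log2 signal was used. Scripts were tested on simulated data.

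Every UGT2 probe set was named, as were the listed genes past the threshold, the brightest gene of each list, and the 5 genes most alike in pattern to the called UGT2 probe set of 1 symbol with the largest fold change as fitted (Ugt2b7) and to the brightest one of 1 symbol. Abcc3, Nfe2l2 and regulators that were not tested were named after their values were seen. The members and lists were chosen with earlier results of these data known. Promoter windows are RefSeq's of GRCr8, aligned with Biopython version 1.88. P-values set group differences against the spread between these rats, and limma also draws on the spread of all tested probe sets. One planned item is not reported here.

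Alternatives for scaling were median centring, quantile normalization or none. For low signals they were adding 16 before log2, raising the floor to the 40th percentile, testing every probe set, or testing the brightest 30%. For the model they were no trend, array weights, robust variance, a block on replicate number, and the actin ratio as a covariate. Probe sets marked as shared were left out, a gene's probe sets were averaged, and each array was left out in turn.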

Additional observations from a re-analysis of the deposited data

Results flagged for a closer look

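Among 80 groups of 4 arrays examined for the UGT2 probe sets, the tested genes of the 4 lists and the actin ratio, 3 held an array far from the other 3, and chance gives about 1 in 20. None was a UGT2 probe set. Abcc3 read 173.4 in vehicle replicate 4 and 45.3 to 64.7 in the other vehicle livers. Hsd3b5, a steroid dehydrogenase, read 2299 in D3T replicate 3 and 1282.3 to 1414.7 in the other D3T livers. Cebpb read 2019.4 in vehicle replicate 3 and 2483.4 to 2563.9 in the other vehicle livers.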

How the results depend on the processing

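Of 177 alternative values of the 9 tested UGT2 probe sets 176 were positive, the exception being Ugt2b (M74439mRNA_i_at) at -0.22 with the actin covariate. A call was lost in 26 and gained in 1. These values are refits of the same arrays, so their shared sign is not independent evidence. They include 18 of Ugt2b7, which was tested only through its D3T signals and from which nothing is read. The count of members with 1 symbol past the threshold, 4 as reported, was 2 with quantile normalization, 1 with no filter, 1 of 3 tested without probe sets marked as shared, and 0 with the actin covariate (limma, 3 at an unadjusted p under 0.05). Without 1 array it ran from 2 to 4, and was 2 without vehicle replicate 1 or without D3T replicate 1, 3 or 4. Calls over all tested probe sets were 560 as reported, 565 with quantile normalization and 309 of 8740 with no filter. They were 35 with the actin covariate, 333 with no intensity trend and 290 with the replicate block. Without 1 array they ran from 240 to 695. The count over the 4 lists, 10 as reported, was 4 with no filter, 5 with no intensity trend and 1 with the actin covariate, and ran from 5 to 9 without 1 array, at 5 without vehicle replicate 1 or D3T replicate 1 and 6 without vehicle replicate 4. The actin log2 ratio difference of -0.22 ran from -0.27 (without D3T replicate 3, exact p = 0.0286) to -0.16. With the replicate number as a block 3 members and 8 listed genes passed, Ugt2b7 losing its call (adjusted p = 0.111). Same-numbered rats did not deviate together (correlations from -0.20 to 0.06), so the numbers were not taken as pairs. The cause of each change was not tested. Array signals give no depth, and dim probe sets such as that of Ugt2b7 lie near the floor.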

Other observations

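Ugdh and Nqo1, both raised after D3T, ordered the 4 D3T livers differently. Log2 signal minus the vehicle mean was 1.13, 0.65, 0.35 and 1.63 for Ugdh and 1.88, 2.13, 1.29 and 1.84 for Nqo1 in D3T replicates 1 to 4. D3T replicate 4, highest for Ugdh and for 6 UGT2 probe sets, was thus not the highest for Nqo1, and the difference between these orders was not tested.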
